A study of Mus musculus with 12 samples.

Results

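The genes described here are 9 markers of peripheral and motor neurons, taken by symbol from a list that was drawn up because Slc6a2 had been seen to be lower in knockout neurons. They are Slc6a2, Th, Dbh, Phox2a, Hand2, Chat, Slc18a3, Isl1 and Prph, 9 of 33560 genes with counts, and 7 of them were abundant enough to be tested (Th and Dbh were not). RNA was sequenced from mouse neurons grown from embryonic stem cells in culture, at day 21. Wild-type (WT) lines were compared with lines lacking a microexon of Daam1 (KO), a formin that assembles actin filaments. Each line received water (vehicle) or 10 µM of Y-27632, an inhibitor of the kinase ROCK, for 2 h. The 4 groups of untreated (vehicle) and treated (inhibitor) WT and KO neurons hold 3 libraries each, and each of the 6 cell lines gave 1 library per treatment. The labels name the lines by number and do not say whether they are independent clones, so the spread between libraries may be partly technical.

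Noradrenaline is made from tyrosine in sequence by tyrosine hydroxylase (Th), aromatic amino acid decarboxylase (Ddc) and dopamine beta-hydroxylase (Dbh), is loaded into vesicles by a monoamine transporter (Slc18a2), and is taken back up by the noradrenaline transporter (Slc6a2). Phox2a and Hand2 are transcription factors that help to specify noradrenergic and other autonomic neurons, and Phox2a is known to act on the Th and Dbh genes. Acetylcholine is made by choline acetyltransferase (Chat) and loaded into vesicles by Slc18a3, whose gene sits inside the Chat locus. Isl1 is a homeodomain factor of motor, sensory and sympathetic neurons, and Prph encodes peripherin, an intermediate filament protein typical of neurons with axons in the periphery.

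Library totals ran from 23253566 to 35012561 counts. On the first principal component of the 15443 tested genes, which held 74.3% of the variance, the positions were 163 for line 3 of treated KO, 68.1 for line 2 of untreated WT and 60.4 for line 3 of treated WT, with the other libraries between -73.8 and 1.41. In the first of these the summed level of 8 pan-neuronal markers was 526 cRPKM against 1402 to 2073 in the other 11, and that of 8 progenitor markers was 349 against 16.5 to 77.1. The labels call the cells glutamatergic. Slc17a6, the vesicular glutamate transporter of subcortical and peripheral neurons, stood at a mean of 73.3 cRPKM, while the cortical markers Slc17a7 (0.413), Tbr1 (0.330) and Emx1 (0.420) were all low and the GABAergic genes Gad1 (57.6) and Sst (205) were high. Sox10, a defining gene of neural crest and Schwann cells, had 0 counts in 11 libraries and 9 counts in line 3 of treated KO.

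The noradrenergic enzymes were close to absent. Over the 12 libraries the mean level was 0.0583 cRPKM for Th and 0.0550 cRPKM for Dbh, where cRPKM is a read count per gene length and library size. Th had 6, 5 and 4 counts in untreated WT (lines 1 to 3), 1, 3 and 4 in untreated KO, 4, 2 and 0 in treated WT, and 2, 1 and 5 in treated KO libraries. Those groups overlap, and most values lie near the 3 counts that a count of 0 still allows. Dbh had 3, 1 and 4 counts in untreated WT, 4, 3 and 8 in untreated KO, 3, 1 and 2 in treated WT, and 10, 10 and 0 in treated KO libraries. The total for Dbh was 35 counts in KO against 14 in WT libraries, the opposite order to Slc6a2. For neither gene was a difference between groups detectable at this depth, and for both the genotypes overlapped in each treatment. Once the 2 libraries of a line were summed, each KO line held more Dbh counts than each WT line, as 5.18% of the genes tested over summed lines did. In a fit with no filter on low counts that Dbh difference was 1.33 ± 0.50 (SE, log2) and did not pass (edgeR adjusted p of 0.995). With both enzymes near 0, the noradrenergic part of the label was not borne out by its defining genes, and the genes are described one by one rather than as a cell type.

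The 300 bases around the start sites of Th and Dbh are shown because both genes stayed near 0 in libraries where their known regulator Phox2a was measurable. The sequences are from RefSeq (GRCm38.p6), which gave a window for 8 of the 9 genes. The Th window is chr7:142899946-142900245 on the minus strand, and the capitals mark TGACGTCA, the cyclic AMP response element, 45 bases before the start site, and 2 copies of the homeodomain core TAAT, read as ATTA and TAAT, 175 and 167 bases before it. The Dbh window is chr2:27165257-27165556 on the plus strand, and the capitals mark 3 copies of the same core, each read on the other strand as ATTA, 157, 147 and 65 bases before the start.
Th: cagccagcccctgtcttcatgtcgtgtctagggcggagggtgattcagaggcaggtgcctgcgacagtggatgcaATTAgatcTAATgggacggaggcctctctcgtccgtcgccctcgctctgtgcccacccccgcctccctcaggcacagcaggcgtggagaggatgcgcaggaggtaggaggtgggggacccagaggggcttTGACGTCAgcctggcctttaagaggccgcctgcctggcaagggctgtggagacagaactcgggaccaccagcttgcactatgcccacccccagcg
Dbh: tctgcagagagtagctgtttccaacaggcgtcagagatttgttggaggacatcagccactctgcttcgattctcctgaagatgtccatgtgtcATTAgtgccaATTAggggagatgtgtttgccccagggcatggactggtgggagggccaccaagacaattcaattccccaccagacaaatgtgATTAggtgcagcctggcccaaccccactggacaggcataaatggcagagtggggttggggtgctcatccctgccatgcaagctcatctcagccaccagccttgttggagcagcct
Both strands were searched and the marked copies do not overlap one another. TGACGTCA occurs in 1.79% of all 32851 promoter windows of this length and TAAT in 58% of them, so that matches to TAAT are common. A match describes the letters of the window only.

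Slc18a3 and Chat share a locus on chromosome 14, and their windows are shown because their levels per library ran together. Slc18a3 ran closer still to Phox2a, on chromosome 7 (Pearson r of 0.86 against 0.80 for Chat). Slc18a3 (32462438 to 32464850, minus strand, GENCODE M21, GRCm38) lies wholly within an intron of Chat (32408203 to 32465989), with 2413 bases of overlap and 0 of them exonic. The Chat window is chr14:32465860-32466159 and the Slc18a3 window chr14:32464801-32465100, both on the minus strand. The capitals mark the E-box CANNTG, which is found in 72.3% of all windows on either strand.
Chat: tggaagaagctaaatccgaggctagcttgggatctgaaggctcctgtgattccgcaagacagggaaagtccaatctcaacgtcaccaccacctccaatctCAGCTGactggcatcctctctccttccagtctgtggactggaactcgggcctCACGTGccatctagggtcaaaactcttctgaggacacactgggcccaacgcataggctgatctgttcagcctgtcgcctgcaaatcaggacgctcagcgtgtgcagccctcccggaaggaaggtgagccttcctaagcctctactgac
Slc18a3: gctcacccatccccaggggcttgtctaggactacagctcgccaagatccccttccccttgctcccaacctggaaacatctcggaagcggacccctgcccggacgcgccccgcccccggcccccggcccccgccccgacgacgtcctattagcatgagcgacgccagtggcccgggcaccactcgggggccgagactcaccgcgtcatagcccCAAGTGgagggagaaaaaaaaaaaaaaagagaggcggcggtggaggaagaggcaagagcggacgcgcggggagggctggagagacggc
The 2 E-boxes of the Chat window start 150 and 98 bases before the start site, and the 1 of the Slc18a3 window starts 38 bases before it.

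Ordered by mean level per length over the 12 libraries, Prph came first at 6.03 ± 2.73 cRPKM (SD), followed by Phox2a (1.73 ± 0.790), Slc18a3 (0.783 ± 0.245), Slc6a2 (0.388 ± 0.547), Isl1 (0.352 ± 0.178), Hand2 (0.124 ± 0.147), Chat (0.10 ± 0.0605), Th (0.0583 ± 0.0354) and Dbh (0.0550 ± 0.0430). Prph was above Phox2a in 12 of 12 libraries and Phox2a above Slc18a3 in 11. The place of Slc6a2 rested on line 2 of untreated WT, at 2.02 cRPKM, and on pooling the genotypes. Its group means were 0.910 and 0.480 cRPKM in untreated and treated WT but 0.0767 and 0.0833 in untreated and treated KO, where Isl1 stood at 0.250 and 0.260. Isl1 was the higher of the pair in 10 of 12 libraries, including all 6 of KO. Hand2 and Chat could not be ordered beyond their spread, nor could Th and Dbh. Even the most abundant, Prph, had 24.9% of the 33560 genes above it, and Th had 53.8%.

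**Figure D1:**
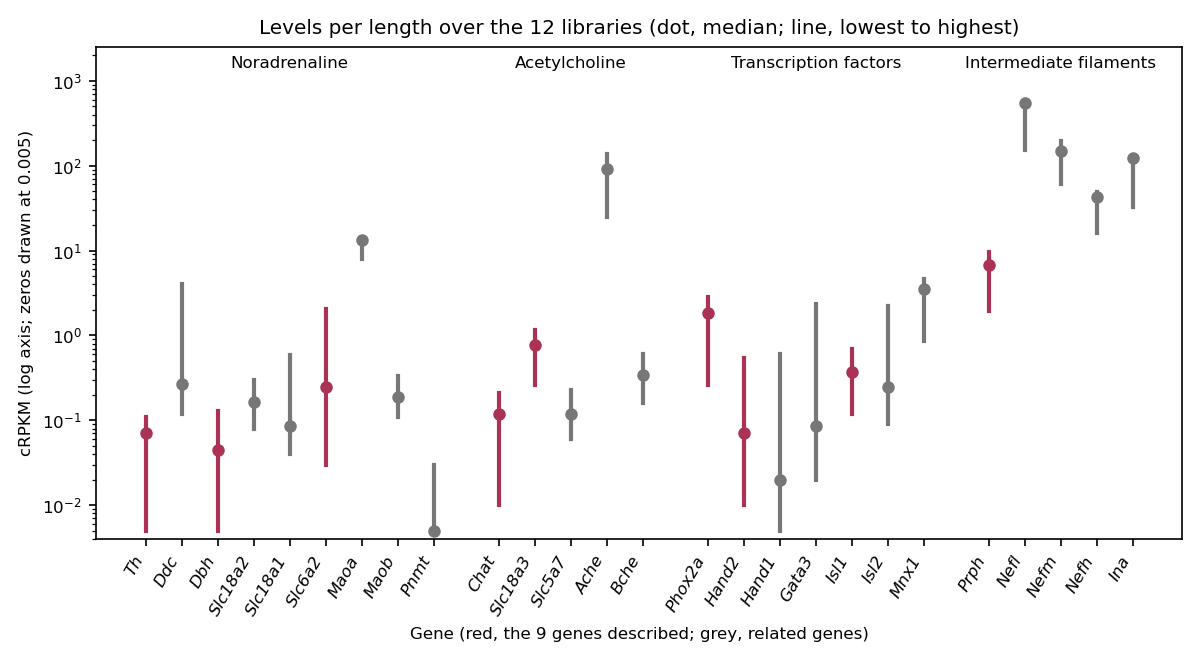
Levels per length of the 9 genes (red) and related genes (grey) over the 12 libraries, on a log axis of cRPKM, with the dot at the median and the line from the lowest to the highest library. Th, Dbh and Chat lie between 0 and 0.21 cRPKM, while Ache reaches 137 and Nefl 594 cRPKM.

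The other genes of the noradrenaline pathway did not stand at one level. Of 17 genes for catecholamine synthesis, storage and breakdown, 16 had counts and 14 were tested, of which none was called in any comparison. The 3 most abundant were Qdpr, which recycles the cofactor of Th (65.1 cRPKM), the vesicle cytochrome Cyb561 (21.5) and Pts, of cofactor synthesis (15.0). Ddc, which acts between Th and Dbh, ranged from 0.12 to 4.07 cRPKM and was above Th in 12 of 12 libraries. In KO neurons its inhibitor minus vehicle difference was 3.00 ± 1.17 (SE, log2), which did not pass (edgeR adjusted p of 0.474), and 1 treated KO library held 226 of the 260 Ddc counts of that group. This difference was singled out after its values were seen. Slc18a2, the vesicular monoamine transporter, stayed between 0.08 and 0.30 cRPKM, and Pnmt, which turns noradrenaline into adrenaline, had 2 counts in all libraries together. Maoa, an enzyme of monoamine breakdown, was at 12.4 cRPKM on average and its paralog Maob at 0.202.

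Slc6a2 showed the largest genotype difference among the 7 tested genes in vehicle. The gene (ENSMUSG00000055368, chromosome 8, 92960079 to 93001667, plus strand) stood at 1.96, 12.2 and 2.16 CPM (normalised read counts, each library scaled by its TMM-adjusted total) in untreated WT libraries of lines 1 to 3, from 57, 314 and 66 counts. Untreated KO libraries held 0.842, 0.260 and 0.275 CPM, from 23, 6 and 7 counts. Treated WT libraries held 2.86, 2.36 and 3.24 CPM and treated KO libraries 0.875, 0.174 and 0.414 CPM. Line 2 of untreated WT lay far above the rest. Every KO library lay below every WT library, as in 78 of 15443 genes (0.505%) and, of the 7 tested genes, in Slc6a2 alone. These values led to the choice of the genes and are given as a description with no test. The group means were 5.45 ± 5.87 CPM (SD, n = 3) in untreated WT, 0.459 ± 0.332 in untreated KO, 2.82 ± 0.441 in treated WT and 0.487 ± 0.357 in treated KO libraries.

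Fitted on the counts, the KO minus WT difference of Slc6a2 was -3.55 ± 0.88 (SE, log2) in vehicle, an 11.7-fold lower level, and -2.53 ± 0.85 in inhibitor, 5.76-fold lower. Over the summed libraries of each line it was -3.08 ± 0.71, 8.48-fold lower. Leaving out 1 library at a time, the vehicle difference ran from -4.32 (without line 1 of untreated KO) to -2.16 (without line 2 of untreated WT) and the inhibitor difference from -3.26 to -2.12, and without the 3 libraries that stand apart it was -2.14 in vehicle and -2.29 in inhibitor.

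**Figure D2:**
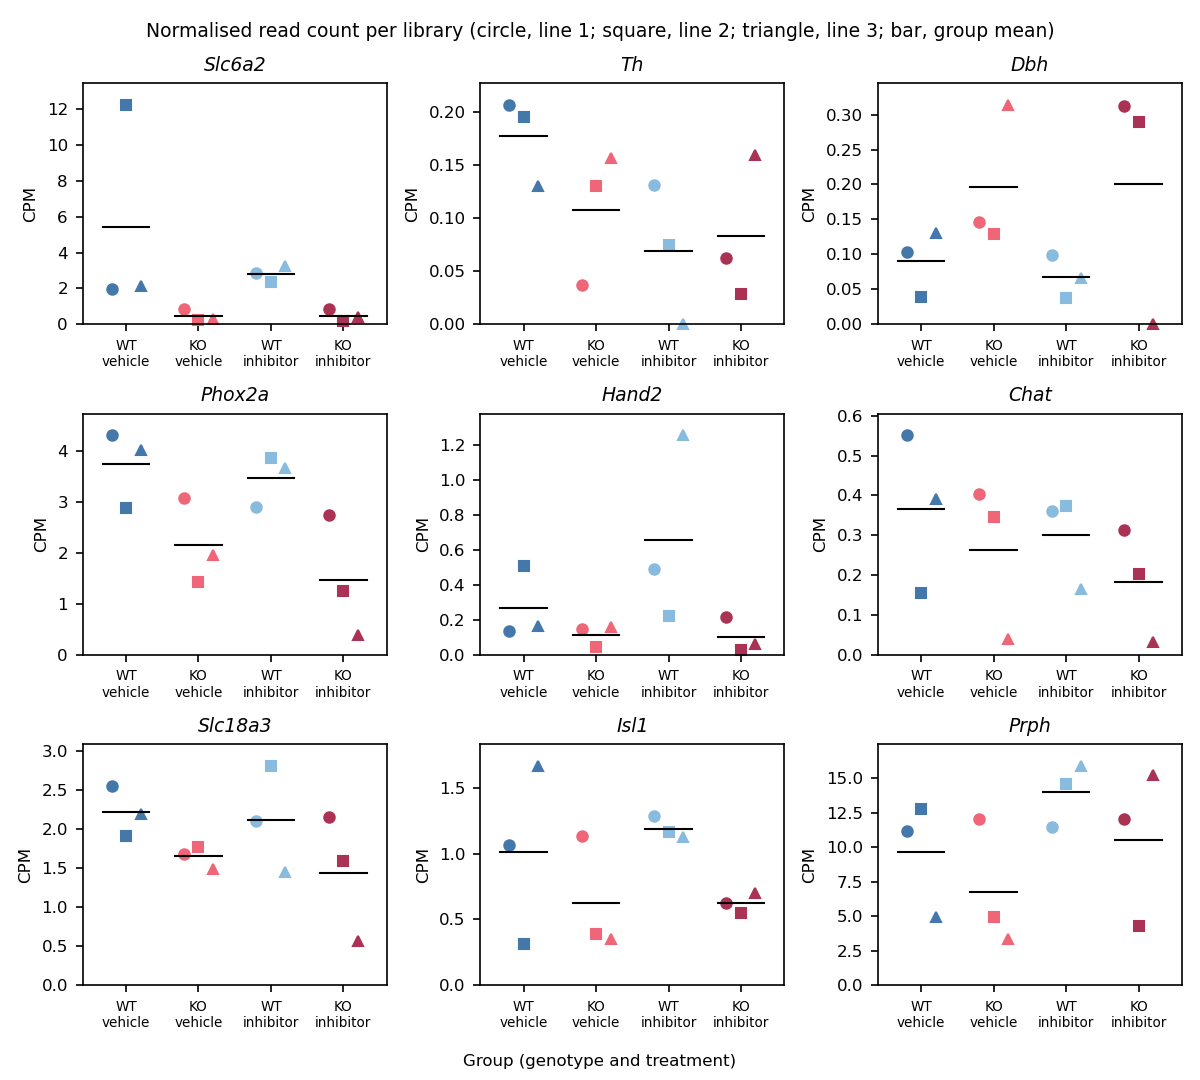
CPM of each of the 9 genes in the 12 libraries by group, with a symbol per cell line and a bar at the group mean; each panel has its own axis from 0. Slc6a2 separates all KO from all WT libraries, with untreated WT line 2 at 12.2 CPM, and Th and Dbh reach at most 0.207 and 0.314 CPM.

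Markers of mesenchymal cells were lower in many of the same libraries as Slc6a2. Of 12 mesenchymal and fibroblast markers, 11 were lower in KO than WT in vehicle, with a median of -2.37 (log2) against -0.01 over all tested genes, and 9 of 12 in inhibitor, with a median of -2.24. Without line 2 of untreated WT the vehicle median was -1.02, with 10 of 12 lower. Over summed lines 9 of 12 were lower, with a median of -2.16. None of the 12 was called, with a smallest edgeR adjusted p of 0.999 in vehicle, 0.856 in inhibitor and 0.101 over summed lines. Dcn, a small proteoglycan, ranged from 3.13 to 25.1 cRPKM in WT and from 0.81 to 2.70 in KO libraries. The summed cRPKM of all 12 ran from 242 to 476 in untreated WT, 260 to 331 in untreated KO, 279 to 381 in treated WT and 173 to 307 in treated KO libraries, and these sums were mostly Thy1, a marker that neurons also carry. For the other 11, a sum chosen after the values were seen, the levels were 98.4, 280 and 36.1 cRPKM in untreated WT, 19.5, 14.3 and 33.3 in untreated KO, 88.7, 75.9 and 199 in treated WT, and 28.7, 25.0 and 104 in treated KO libraries of lines 1 to 3. Across the 12 libraries, log2 Slc6a2 CPM and this sum had a Pearson r of 0.77 and a Spearman rho of 0.74. Leaving out the 2 libraries farthest from the median sum, r was 0.56, and it was 0.77 without the 3 libraries that stand apart. Without those 3, r with the same sum was 0.72 for Slc18a3, 0.66 for Phox2a, 0.65 for Hand2 and 0.55 for Isl1. It was 0.49 for Prph, 0.46 for Th, 0.28 for Chat and -0.53 for Dbh. Over all 12 libraries it was 0.70 for Hand2, 0.63 for Prph, 0.18 for Th and 0.16 for Phox2a. Isl1 was at 0.09, Slc18a3 at -0.09, Chat at -0.24 and Dbh at -0.68. For the sum of all 12 markers as listed, the r of Slc6a2 was lower, at 0.48 over the 12 libraries. Without the 3 libraries that stand apart that r was -0.56, so its sign depended on Thy1 and on those libraries. Other marker sums also ran with Slc6a2 without those 3 libraries, so the link was not particular to mesenchymal markers. There r was 0.89 for neural crest and Schwann, 0.77 for cardiac and smooth muscle, -0.87 for pan-neuronal and -0.97 for sensory neuron markers. Over all 12 libraries these were 0.14, 0.50, -0.01 and -0.38 in that order. The libraries share 6 lines and the gap between genotypes, and the part of mesenchymal cells in the Slc6a2 difference was not tested. In bulk RNA, fewer cells of a type and less RNA per cell cannot be told apart.

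**Figure D3:**
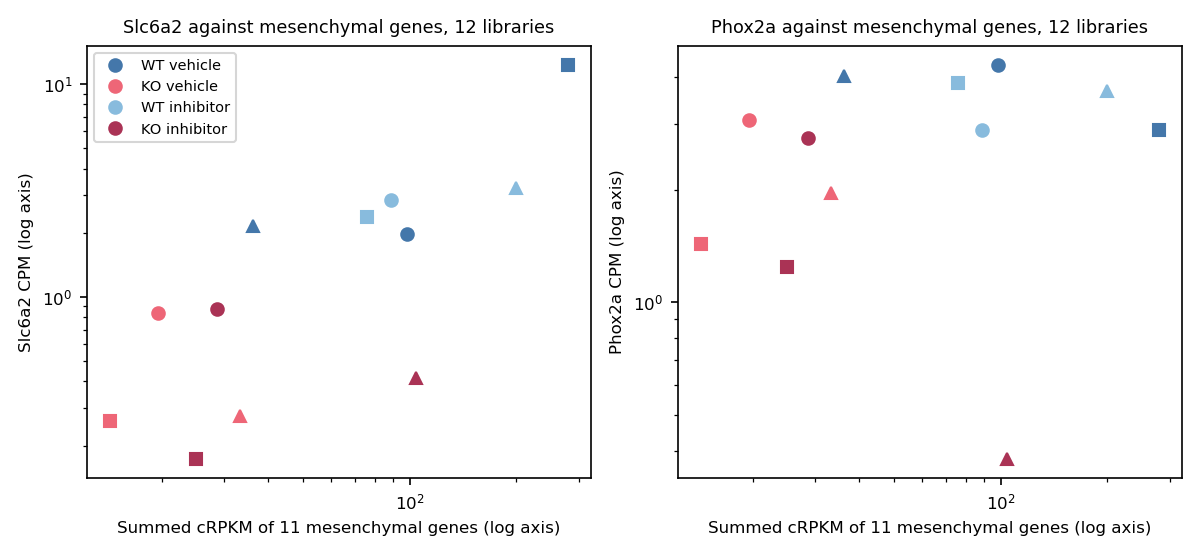
Slc6a2 (left) and Phox2a (right) CPM against the summed cRPKM of 11 mesenchymal genes in the 12 libraries, both axes log, with colours for the groups and circles, squares and triangles for lines 1 to 3. Slc6a2 is highest in the library with the highest sum (12.2 CPM at 280 cRPKM), and Phox2a is lowest at 0.382 CPM in line 3 of treated KO. Pearson r with the sum is 0.77 for Slc6a2 and 0.16 for Phox2a. Without the 3 libraries that stand apart it is 0.77 and 0.66.

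The genes whose log2 CPM ran closest to Slc6a2 over the 12 libraries, among 13424 candidates, were Ddr2 (r of 0.94), Cdkn1c (0.94), Thsd4 (0.93), Rgs12 (0.92) and Vegfc (0.91). Ddr2, a collagen receptor, lay between 7.97 and 19.6 CPM in WT libraries and between 3.35 and 6.73 CPM in KO libraries. Its genotypes thus did not overlap either. Ddr2 was picked by its r with Slc6a2 over these same libraries, so this adds no support. Without the 3 libraries that stand apart, r was 0.97 for Ddr2, 0.88 for Cdkn1c, 0.86 for Thsd4, 0.91 for Rgs12 and 0.82 for Vegfc.

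Phox2a (ENSMUSG00000007946, chromosome 7, 101818313 to 101822726, plus strand) was the most abundant transcription factor of the 9 genes. It stood at 4.30, 2.88 and 4.02 CPM in untreated WT, 3.07, 1.43 and 1.96 in untreated KO, 2.89, 3.86 and 3.67 in treated WT and 2.75, 1.24 and 0.382 in treated KO libraries. KO and WT overlapped in vehicle, through line 1 of KO and line 2 of WT, and did not overlap in inhibitor. The KO minus WT difference was -0.79 ± 0.57 (SE, log2) in vehicle, -1.25 ± 0.57 in inhibitor and -1.0 ± 0.40 over summed lines. Leaving out 1 library at a time, the vehicle difference ran from -1.14 to -0.57, and the inhibitor difference from -2.09 (without line 1 of treated KO) to -0.80 (without line 3 of treated KO). The last bases of Phox2a overlap 95 exonic bases of Inppl1 on the opposite strand, and 2.32% of its 50-base words occur in Inppl1. In line 3 of treated KO, Inppl1 was at its highest, 117 CPM, while Phox2a was at its lowest.

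The genes closest to Phox2a were Cit (r of 0.98), Hoxb8 (0.97) and Gm45441 (0.97). Hoxb8, a posterior homeobox gene, lay between 218 and 303 CPM in WT libraries and between 102 and 238 CPM in KO libraries.

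Hand2 (ENSMUSG00000038193, chromosome 8, 57320983 to 57324633, plus strand) was rare, with 100 counts in all. It had 4, 13 and 5 counts in untreated WT, 4, 1 and 4 in untreated KO, 15, 6 and 38 in treated WT and 7, 1 and 2 in treated KO libraries. In CPM the genotypes overlapped in vehicle and not in inhibitor, where WT line 2 (0.225 CPM) and KO line 1 (0.219 CPM) were close. The KO minus WT difference was -1.15 ± 0.90 (SE, log2) in vehicle and -2.63 ± 0.86 in inhibitor. With any 1 library left out, the former ran from -1.47 to -0.35 (without line 2 of untreated WT) and the latter from -3.73 (without line 1 of treated KO) to -1.77 (without line 3 of treated WT). Hand2 shares 15.8% of its 50-base words with the antisense gene Hand2os1, which had 0 counts in 11 libraries and 1 count in line 3 of treated WT. Closest to Hand2 were Ddr2 (r of 0.87), Aspn (0.86) and Lum (0.86), and Lum is among the mesenchymal markers. Without the 3 libraries that stand apart these r values were lower, at 0.73, 0.68 and 0.71.

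Of 21 genes listed for noradrenergic and autonomic neurons, 17 were tested and none was called in any comparison. Their median KO minus WT difference was -0.10 (log2) in vehicle, with 8 higher and 9 lower, against -0.01 over all genes. The 3 most abundant were the secretory granule proteins Chga (179 cRPKM) and Chgb (113) and the peptide Npy (77.5), which many neurons make. Ret, a receptor for glial-derived growth factors in enteric and sympathetic neurons, averaged 12.5 cRPKM.

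On the cholinergic side, the vesicular transporter outran the enzyme. Slc18a3 was higher than Chat per length in 12 of 12 libraries, at 0.783 against 0.10 cRPKM. Slc18a3 (ENSMUSG00000100241) stood at 2.55, 1.91 and 2.19 CPM in untreated WT, 1.68, 1.77 and 1.49 in untreated KO, 2.10, 2.81 and 1.45 in treated WT and 2.16, 1.59 and 0.573 in treated KO libraries. In vehicle every KO library was below every WT library, while in inhibitor they overlapped. The KO minus WT difference was -0.42 ± 0.43 (SE, log2) in vehicle and -0.56 ± 0.43 in inhibitor. Over fits that each omit 1 library, the former ran from -0.52 to -0.31 and the latter from -0.97 (without line 1 of treated KO) to -0.18 (without line 3 of treated KO).

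Chat (ENSMUSG00000021919) had 16, 4 and 12 counts in untreated WT, 11, 8 and 1 in untreated KO, 11, 10 and 5 in treated WT and 10, 7 and 1 in treated KO libraries. The genotypes overlapped in both treatments, and line 3 of KO held 1 count in each. The KO minus WT difference was -0.48 ± 0.81 (SE, log2) in vehicle and -0.70 ± 0.83 in inhibitor. Leaving out 1 library at a time, the former ran from -0.94 to 0.03 (without line 1 and without line 3 of untreated KO) and the latter from -1.30 to -0.22 (without line 1 and without line 3 of treated KO). Chat and Slc18a3 had a Pearson r of 0.80 over the 12 libraries and 0.68 without the 3 that stand apart. Phox2a and Slc18a3, on different chromosomes, had 0.86 and 0.77. Slc18a3 ran closest to Ndufaf3 (r of 0.97), Crabp1 (0.97) and Cd200 (0.96), and Chat to Cdkl1 (0.92), Kcna5 (0.91) and Tmem200a (0.91).

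Of 17 cholinergic synapse genes, 16 were tested and 0 called in each comparison. Ache, which breaks acetylcholine down and is made by many neurons, was the most abundant at 93.6 cRPKM, followed by the nicotinic receptor subunit Chrna4 (28.4) and the choline kinase Chka (18.03). Slc5a7, the high-affinity choline transporter that marks cholinergic terminals, stayed between 0.06 and 0.23 cRPKM. Of 17 genes listed for motor neurons and forebrain cholinergic neurons, 13 were tested and none was called. The 3 most abundant were Lmo4 (34.9 cRPKM), Calca (26.9) and Gbx2 (4.38). Mnx1, a motor neuron factor, averaged 3.45 cRPKM, while Lhx3, which acts with Isl1 in motor neurons, averaged 0.192 and Lhx8, of forebrain cholinergic neurons, 0.0342.

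Isl1 (ENSMUSG00000042258, chromosome 13, 116298281 to 116309689, minus strand) stood at 1.07, 0.312 and 1.67 CPM in untreated WT, 1.13, 0.389 and 0.353 in untreated KO, 1.28, 1.16 and 1.12 in treated WT and 0.625, 0.549 and 0.700 in treated KO libraries. The vehicle groups overlapped widely, and the inhibitor groups were tight and apart. The KO minus WT difference was -0.69 ± 0.58 (SE, log2) in vehicle and -0.92 ± 0.58 in inhibitor. With any 1 library left out, the former ran from -1.45 (without line 1 of untreated KO) to -0.14 (without line 3 of untreated WT) and the latter from -1.01 to -0.84. Isl1 was above its paralog Isl2 in 7 of 12 libraries. Closest to it were Unc13b (r of 0.91), Inca1 (0.88) and Kat5 (0.88).

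Prph (ENSMUSG00000023484, chromosome 15, 99055174 to 99058978, plus strand) was the most abundant of the 9. It stood at 11.2, 12.8 and 4.93 CPM in untreated WT, 12.04, 4.93 and 3.33 in untreated KO, 11.5, 14.6 and 15.9 in treated WT and 12.03, 4.28 and 15.2 in treated KO libraries. Genotypes overlapped in both treatments: line 1 stood between 11.2 and 12.04 CPM in all 4 groups, KO line 2 was low in both treatments, and line 3 was low in vehicle and high in inhibitor in both genotypes. The KO minus WT difference was -0.51 ± 0.57 (SE, log2) in vehicle and -0.41 ± 0.57 in inhibitor. Over fits that each omit 1 library, the former ran from -1.22 to -0.18 (without line 1 and without line 3 of untreated KO) and the latter from -0.78 to -0.04 (without line 3 and without line 2 of treated KO). The neuronal filament genes were far above it in every library, with Nefl at 521 cRPKM, Nefm at 151 and Ina at 114 on average. In line 3 of treated KO Prph was at its highest per length, 9.50 cRPKM, and Nefl at its lowest, 154. All 9 other intermediate filament genes listed were tested and none was called. Closest to Prph were Slc43a3 (r of 0.94), Prok2 (0.93) and Zic2 (0.93).

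With no filter on low counts, so that each of the 9 genes was fitted, the KO minus WT difference was below 0 in 8 of 9 genes in vehicle and over summed lines (Dbh was above 0) and in 7 of 9 in inhibitor (Th and Dbh were above 0). The medians were -0.70 in vehicle, -0.66 in inhibitor and -0.59 over summed lines. Over all 24110 genes of those fits, 49.3%, 45.3% and 40.9% were below 0 in vehicle, in inhibitor and over summed lines. The filter bears on counts over the 7 tested genes. Hand2 reached 10 counts in 3 WT libraries and 0 KO libraries and so was tested through WT alone. Chat reached 10 counts in 4 WT and 2 KO libraries and would not have passed on its KO libraries alone. Dbh, higher in KO, was not tested. Groups that did not overlap were found for 2 of 7 genes in vehicle (Slc6a2 and Slc18a3), where 4.90% of all tested genes were lower without overlap, for 4 in inhibitor (Slc6a2, Phox2a, Hand2 and Isl1, 7.03% of all genes) and for 3 over summed lines (Slc6a2, Phox2a and Hand2, 3.78%). Nothing is read from these counts, since the genes were chosen on this contrast, and the vehicle and inhibitor libraries come from the same lines.

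Markers of other cells took different directions in inhibitor with and without line 3 of treated KO. With it, 8 of 8 pan-neuronal markers were lower in KO (median of -0.23, log2), while 8 of 8 astrocyte markers (0.97) and 8 of 8 progenitor markers (1.07) were higher. Without it, 8 of 8 pan-neuronal markers were higher (0.19), 5 of 8 astrocyte markers were lower (-0.09) and 7 of 8 progenitor markers were lower (-0.54). In vehicle, 7 of 8 pan-neuronal markers were higher in KO (0.20), 4 of 8 astrocyte markers were higher (-0.16) and 5 of 8 progenitor markers were lower (-0.59, or 0.12 without line 2 of untreated WT). The summed astrocyte level ran from 188 to 210 cRPKM in treated WT and was 232, 261 and 474 in lines 1 to 3 of treated KO. None of these markers was called, and their part in the differences of the 9 genes was not tested.

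edgeR called 0 of 15443 genes (0%) in either treatment at an adjusted p below 0.05, with 307 and 540 genes at an unadjusted p below 0.05, and DESeq2 called 11 and 18. Over summed lines edgeR called 0 of 16090 genes (0%), with 426 at an unadjusted p below 0.05, and DESeq2 called 88.

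**Figure D4:**
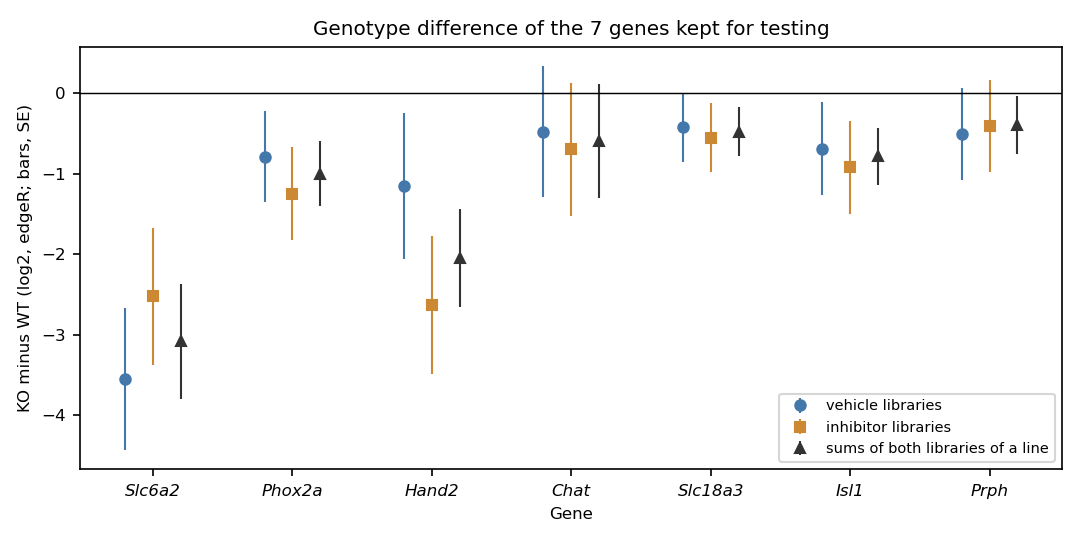
KO minus WT difference (log2, with SE) of the 7 tested genes in vehicle, in inhibitor and over the summed libraries of each line. The points of these 7, which leave out Th and Dbh, lie below 0, from -3.55 for Slc6a2 in vehicle to -0.40 for Prph over summed lines. Hand2 and Chat would not have passed the filter on counts through their KO libraries alone.

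Whether ROCK inhibition for 2 h altered these genes was tested within each genotype. The vehicle libraries are the ones in which Slc6a2 had been seen to differ, so these comparisons are not independent of how the genes were chosen. None of the 7 was called in WT or in KO neurons, and the differences were smaller than or close to their standard errors except for Hand2 in WT. In WT neurons the inhibitor minus vehicle difference was -0.95 ± 0.79 (SE, log2) for Slc6a2 and 1.30 ± 0.79 for Hand2, with an edgeR adjusted p of 1.00 for each of the 7. The Slc6a2 value rested on line 2 of untreated WT, since it was 0.42 without it: line 2 went from 12.2 to 2.36 CPM while lines 1 and 3 went from 1.96 to 2.86 and from 2.16 to 3.24 CPM. The Hand2 value was 0.44 without line 3 of treated WT. The other 5 genes lay between -0.29 (Chat) and 0.54 (Prph). Here edgeR called 0 of 15443 genes (0%), with 47 at an unadjusted p below 0.05, and DESeq2 called 0. This fit does not pair the 2 libraries of a line. With the cell line as a block, the WT difference was -0.35 ± 0.69 for Slc6a2 and 1.23 ± 0.87 for Hand2.

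In KO neurons Slc6a2 differed by 0.07 ± 0.85 (SE, log2; edgeR adjusted p of 0.959), Phox2a by -0.56 ± 0.57 (0.570), Chat by -0.51 ± 0.84 (0.702), Slc18a3 by -0.19 ± 0.43 (0.776), Hand2 by -0.18 ± 0.96 (0.909), Isl1 by -0.01 ± 0.58 (0.992) and Prph by 0.63 ± 0.57 (0.548). The Phox2a value was -0.11 and the Prph value 0.27 without line 3 of treated KO, the library with the lowest pan-neuronal sum. Again 0 of 15443 genes (0%) were called by edgeR, with 1088 at an unadjusted p below 0.05, and 0 by DESeq2. With the cell line as a block, the KO difference was -0.84 ± 0.53 for Phox2a and 0.05 ± 0.71 for Slc6a2.

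**Figure D5:**
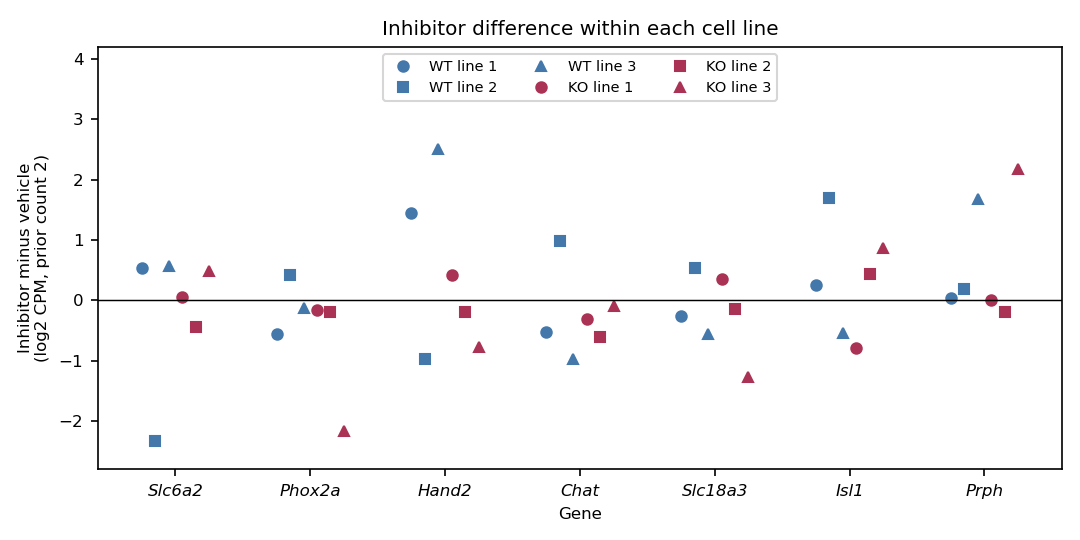
Inhibitor minus vehicle difference within each cell line (log2 CPM with a prior count of 2) for the 7 tested genes, blue for WT and red for KO. For Slc6a2, WT line 2 lies at -2.34 while WT lines 1 and 3 lie at 0.53 and 0.57, and no gene has all 3 WT lines on one side of 0 and all 3 KO lines on the other.

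The genotypes did not differ detectably in their response to the inhibitor. The interaction was 1.02 ± 1.16 (SE, log2) for Slc6a2 (edgeR adjusted p of 0.814) and -1.48 ± 1.26 for Hand2 (0.808), and between -0.46 (Phox2a) and 0.10 (Prph) for the other 5, with adjusted p from 0.841 to 0.963. Without line 2 of untreated WT the Slc6a2 interaction was -0.34. With the cell line as a block, the interaction was 0.40 ± 0.99 for Slc6a2 and -0.75 ± 0.72 for Phox2a. With 0 of 15443 genes (0%) called, 185 at an unadjusted p below 0.05 and 0 by DESeq2, these tests do not show that the responses were alike.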

How the data were processed

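Poly(A) RNA of 12 libraries was sequenced, and the authors deposited 1 table per library without a header, with an Ensembl identifier, a cRPKM value and a read count per gene. As deposited, counts are whole and carry no normalization. cRPKM, a form of RPKM that the authors corrected in a way no label describes, scales reads by the length of a gene and the size of a library. The build is mm10 per the submitters' processing notes. The aligner, counter, annotation, filters and use of strand in counting are not given in the sources used here. The series text names hippocampus, the sample labels neurons grown in culture, and the labels were followed. Of 36902 genes, 3342 were NA in every table, and 33371 of the other 33560 identifiers matched a symbol. Coordinates are from GENCODE M21 (GRCm38).

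Counts were tested with edgeR 4.0.16 in R 4.3.3 (filterByExpr by group, TMM, robust glmQLFit and glmQLFTest) in 1 fit of 12 libraries with a coefficient per group, and KO against WT also over the summed counts of each line (16090 genes). Benjamini-Hochberg adjustment ran over all tested genes, with a threshold of 0.05 for calls. An SE is the log2 difference divided by the square root of F. The biological coefficient of variation was 0.411 over libraries and 0.360 over lines. The fit was tested on simulated data. Alternatives were DESeq2 1.42.0, other scalings, no filter, limma 3.58.1 on log2(cRPKM + 0.1), a block, and libraries left out. Counts carry no molecular identifiers, so floors cover counting error only.

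The 2 libraries of a line are paired by the labels. Their deviations from the group means correlated from -0.72 to 0.57.

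The 9 genes and all lists were chosen with earlier results of these data known. Beyond the 9, called genes and the 3 most abundant of each list were to be named, and the genes closest to each by Pearson r of log2 CPM (prior count 2, mean of at least 1 CPM). Ddc, Slc18a2, Pnmt, Maoa, Maob, Ret, Slc5a7, Mnx1, Lhx3, Lhx8, Isl2 and the cell type markers named were chosen after their values were seen.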

Additional observations from a re-analysis of the deposited data

How the results depend on the processing

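Genes called moved from 0 under DESeq2 to 11 in vehicle, 18 in inhibitor and 88 over summed lines for KO against WT, to 2 over summed lines with no filter on low counts, and, without the 3 libraries that stand apart, to 2 in vehicle and 1 in inhibitor; the cause was not tested. Leaving out 1 library at a time gave 0 called genes in each comparison, and the inhibitor comparisons and the interaction had 0 under each alternative run. With the cell line as a replicate block, 0 genes were called, and with the replicate number as a block (a number only, since WT and KO lines share no source in the labels) 0 were called as well; neither changed a call.

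No inhibitor difference of the 7 genes passed under an alternative, but several signs turned. In KO neurons Isl1 (-0.01) was 0.0153 under DESeq2, 0.0177 with its size factors, 0.0179 with no filter, 0.0512 with library totals, 0.14 with limma and 0.17 with the line block. Without the 3 libraries, WT values were 0.32 for Slc6a2, 0.0298 for Slc18a3 and -0.19 for Isl1, KO Slc18a3 was 0.20 and the interaction was -0.14 for Slc6a2, 0.22 for Phox2a, 0.35 for Chat, 0.17 for Slc18a3, 0.11 for Isl1 and -0.39 for Prph.

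Leaving out 1 library at a time, WT values ran from -1.35 to 0.42 for Slc6a2, -0.29 to 0.0097 for Phox2a, -0.67 to 0.11 for Chat, -0.32 to 0.15 for Slc18a3 and -0.23 to 0.78 for Isl1. KO values ran from -0.66 to 0.85 for Slc6a2, -1.28 to 0.26 for Hand2, -0.61 to 0.18 for Slc18a3 and -0.30 to 0.74 for Isl1. The interaction ran from -0.34 to 1.80 for Slc6a2, -0.82 to 0.27 for Chat, -0.54 to 0.25 for Slc18a3, -0.79 to 0.52 for Isl1 and -0.27 to 0.81 for Prph. Depth limits Th, Dbh, Hand2 and Chat, which had at most 38 counts in a library.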
